A study of Mus musculus with 2 samples.

Results

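Imprinted miRNA genes outside the Dlk1-Dio3 region were examined in microRNA sequencing of a calf muscle, the gastrocnemius. It came from 2 females of the B6CASTF1/J strain aged 10 days. The genes were 5 of the 2202 miRNA genes counted in each library and were taken by name from the GENCODE M21 annotation. They are Mir335 in Mest, Mir483 in Igf2, Mir675 in H19, and Mir296 and Mir298 of the Gnas locus. The strain is an F1 hybrid of C57BL/6 and CAST mice, and both samples form 1 group with no treatment, genotype or time to compare. The labels number the animals as biological replicates 1 and 2 but give both the same donor entry, so the differences below describe these 2 libraries, which may differ for technical reasons too.

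Genomic imprinting silences the copy of a gene inherited from one parent and leaves the other copy active. Mest and Igf2 are known to be expressed from the paternal copy in the mouse and H19 from the maternal copy. Their miRNAs lie within these genes on the same strand. Mir296 and Mir298 are known in the mouse to be expressed from the paternal chromosome. Igf2 encodes a fetal growth factor, H19 a long noncoding RNA abundant in fetal and newborn muscle, and Mest a protein related to hydrolases and common in mesodermal tissue. The counts here are not separated by parental copy, so imprinting itself was not measured. Because the tissue was whole muscle, fewer cells of a type and less RNA per cell cannot be told apart.

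All 5 genes were matched by symbol to RefSeq, which gives each a hairpin with an annotated mature miRNA on either arm. The hairpins are shown because a count covers reads from anywhere on them, so that the arms cannot be separated. Capitals mark the mature miRNAs, the 5p arm before the 3p arm, and every sequence is RefSeq's for build GRCm38.p6, read on the strand of the gene.
Mir335: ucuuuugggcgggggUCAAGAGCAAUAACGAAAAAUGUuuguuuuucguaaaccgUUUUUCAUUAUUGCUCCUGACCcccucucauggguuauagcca
Mir483: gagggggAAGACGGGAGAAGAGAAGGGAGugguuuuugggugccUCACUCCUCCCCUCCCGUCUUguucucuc
Mir675: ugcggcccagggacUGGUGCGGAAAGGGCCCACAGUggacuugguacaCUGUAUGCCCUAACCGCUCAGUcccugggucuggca
Mir296: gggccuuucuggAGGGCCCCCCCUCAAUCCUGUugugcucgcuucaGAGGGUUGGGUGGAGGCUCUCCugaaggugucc
Mir298: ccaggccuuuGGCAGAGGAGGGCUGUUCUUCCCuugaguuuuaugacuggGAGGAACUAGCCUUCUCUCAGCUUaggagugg

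The mature sequences are shown with bases 2 to 8, the seed that a miRNA pairs with its targets, in capitals.
miR-335-5p: uCAAGAGCaauaacgaaaaaugu
miR-335-3p: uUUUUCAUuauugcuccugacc
miR-483-5p: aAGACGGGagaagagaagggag
miR-483-3p: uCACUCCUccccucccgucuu
miR-675-5p: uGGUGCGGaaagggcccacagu
miR-675-3p: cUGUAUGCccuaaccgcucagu
miR-296-5p: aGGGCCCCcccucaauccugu
miR-296-3p: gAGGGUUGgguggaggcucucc
miR-298-5p: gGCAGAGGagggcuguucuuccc
miR-298-3p: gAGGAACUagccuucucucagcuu

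The 10 seeds all differ from one another, and each occurs in no other mature miRNA of the RefSeq table. Seeds found in a single sequence are common there, being carried by 1214 of 1674 distinct mature sequences (72.5%). With bases 2 to 7 alone, 4 of the 10 match 1 other miRNA each. The genes of those miRNAs were not detected: Mir7646, Mir3110, Mir6986 and Mir5621 had at most 3 reads in a library. No detected gene with a mature miRNA in the RefSeq table therefore shares a seed with the 5 hairpins. In base composition the hairpins differ widely. G and C make up 42.9% of the Mir335 hairpin, 53.7% of Mir298, 58.9% of Mir483, 63.1% of Mir675 and 63.3% of Mir296, against a median of 50.0% over the 332 detected genes. The mature miR-335-5p holds 30.4% G and C and miR-296-3p 68.2%.

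Reads that align to several places were set aside by the counting, so a miRNA with a near-identical copy would lose reads. None of the 5 hairpins shares a window of 18 bases with another annotated precursor, whereas 84 of the 332 detected genes do (25.3%). The longest shared stretch was 14 bases, between Mir335 and Gm23952. It was 13 bases for Mir483, 12 for Mir298 and for Mir296, and 11 for Mir675. Identical sequence elsewhere in the genome was not searched. Ranks and shares given below hold among counted reads, in which genes with near-identical copies may stand too low.

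The genes lie in different kinds of transcript, in mm10 coordinates. Mir335 (ENSMUSG00000065501.1, plus strand of chromosome 6, 30741299 to 30741396) falls within an intron of Mest in 7 of its 11 annotated transcripts and outside the span of the other 4. Mir483 (ENSMUSG00000070140.1, minus strand of chromosome 7, 142654924 to 142654996) falls within an intron of Igf2 in 7 of 9 transcripts, and also in an intron of Gm49394, a protein-coding gene that overlaps Igf2. Mir675 (ENSMUSG00000076275.1, chromosome 7, 142577064 to 142577147, minus strand) lies in an exon in 3 of 7 H19 transcripts, in an intron in 1 and outside the span of 3. It starts 996 bases from the start of H19 and 77.8 kb from Mir483. Mir298 (ENSMUSG00000065410.1, chromosome 2, 174267504 to 174267585, minus strand) and Mir296 (ENSMUSG00000065521.1, chromosome 2, 174267047 to 174267125, minus strand) are 378 bases apart. No annotated gene on their strand contains them. They lie beyond the 3′ end of Nespas, a noncoding RNA antisense to Gnas, with 13.7 kb between Mir298 and that end.

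**Figure D1:**
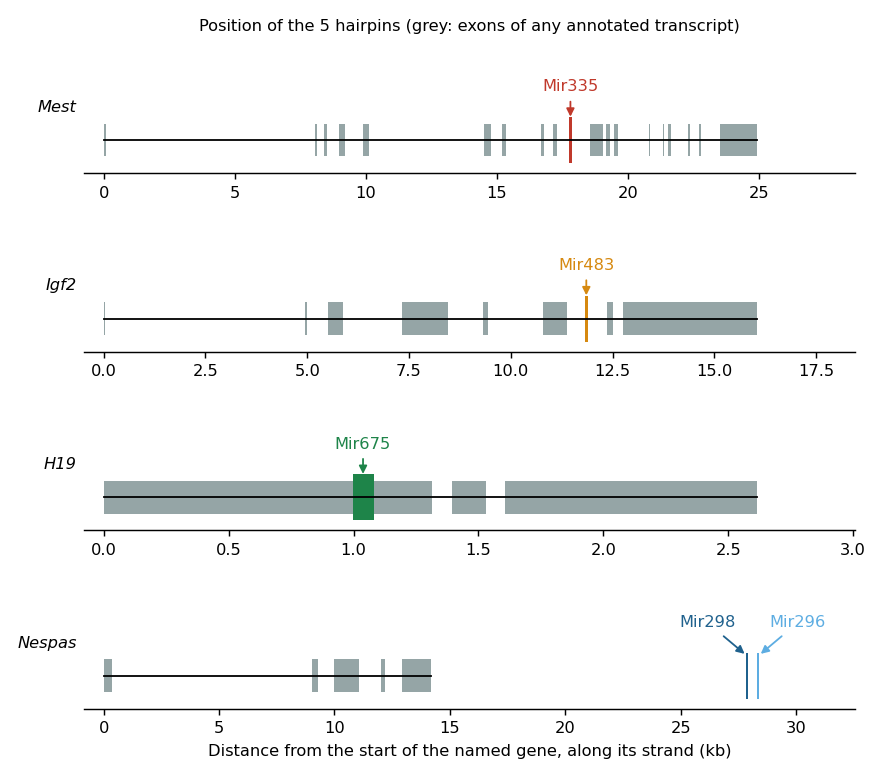
Each row draws 1 gene from its annotated start along its strand, with distance in kb on the horizontal axis, exons of any annotated transcript as grey boxes and hairpins in colour. Mir335 and Mir483 sit between exons of Mest and Igf2, Mir675 inside an exon of H19 996 bases from its start, and Mir298 and Mir296 13.7 kb or more past the end of Nespas.

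All 5 genes were detected, meaning 2 or more reads per 1e6 sense reads on miRNA genes (CPM) in both libraries, a level reached by 15.1% of annotated miRNA genes. Replicate 1 had 3510897 such sense reads and replicate 2 had 3949733, and a count of 0 allows up to 0.854 and 0.760 CPM in them. The 5 genes together held 2.62% of replicate 1 (2.60% to 2.63%, Wilson 95% interval) and 2.84% of replicate 2 (2.82% to 2.85%), a mean of 2.73% ± 0.157 (SD, n = 2). Mir335 alone made up 76.8% of the reads of the 5 genes in replicate 1 and 83.8% in replicate 2. Intervals of a single library cover counting error only, since the reads carry no molecular identifiers.

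Mir335, known from studies of mesenchymal cells and of muscle regeneration in the mouse, was the highest of the 5. It had 70554 reads in replicate 1 and 93957 in replicate 2, or 20096 CPM (Wilson 95% interval 19949 to 20243) and 23788 CPM (23638 to 23939). Its mean was 21942 ± 2611 CPM (SD, n = 2), and its rank among all miRNA genes was 15 in replicate 1 and 14 in replicate 2. Replicate 2 was the higher library, and the intervals do not overlap. Among the 140 detected genes in introns, Mir335 ranked 6 by mean CPM. The detected gene next above it was Mir26b, with 21267 CPM in replicate 1 and 24048 CPM in replicate 2, and next below it was Mir431 of the Dlk1-Dio3 region, with 20939 and 18776 CPM. The ranges of both neighbours over the animals overlap that of Mir335, so these places in the order are not resolved.

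Mir483, known in human tumours with high IGF2 for being high as well, stood next at 5107 CPM in replicate 1 (5033 to 5182) and 3692 CPM in replicate 2 (3633 to 3752). These values come from 17931 and 14583 reads. Here replicate 1 was the higher library, the reverse of Mir335. The mean was 4400 ± 1001 CPM (SD, n = 2), and the SD was 22.7% of the mean, the widest relative spread of the 5 genes, against 4.34% to 13.1% for the other 4. Its rank was 35 in replicate 1 and 42 in replicate 2. Its neighbours by mean CPM were Mir21a at 4408 ± 221 CPM and Mir99b at 4220 ± 453 CPM, which both lay within the range of Mir483.

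Mir675, cut from H19 and known in the mouse to limit placental growth and to be made during muscle differentiation, was the lowest of the 5. It had 130 reads in replicate 1 and 176 in replicate 2, or 37.0 CPM (31.2 to 44.0) and 44.6 CPM (38.4 to 51.6). The intervals overlap, and a difference between the animals was not detectable at this depth (exact binomial test of the libraries, described below, adjusted p = 0.227). The mean was 40.8 ± 5.33 CPM (SD, n = 2), at rank 211 and 209 in the libraries, between Mir467c (41.9 ± 0.828 CPM) and Mir29c (40.3 ± 7.83 CPM). It is the member for which counting error weighs most.

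Within the Igf2 and H19 domain, the ratio of Mir483 to Mir675 reads was 138 in replicate 1 (exact 95% interval 116 to 165) and 82.9 in replicate 2 (71.4 to 96.7). These intervals do not overlap. Per base of annotated hairpin the ratio was 159 in replicate 1 and 95.3 in replicate 2. The ratio of Mir335 to Mir675, from different chromosomes, was 543 in replicate 1 (457 to 650) and 534 in replicate 2 (460 to 622), with overlapping intervals. Adapter ligation and amplification differ between small RNA sequences, so a ratio between genes describes reads and need not equal the ratio of molecules.

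The Gnas locus pair had intermediate levels. Mir298 had 1757 reads in replicate 1 and 1816 in replicate 2, or 500 CPM (478 to 524) and 460 CPM (439 to 481), a mean of 480.1 ± 28.8 CPM (SD, n = 2). Mir296, known for a role in the response of human endothelial cells to growth factors, had 1484 and 1570 reads, or 423 CPM in replicate 1 (402 to 445) and 397 CPM in replicate 2 (378 to 418), a mean of 410.1 ± 17.8 CPM (SD, n = 2). Both were somewhat higher in replicate 1, and their intervals overlap between the libraries. Mir298 ranked 110 in each library and Mir296 117 and 115.

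Mir298 exceeded Mir296 by 1.18-fold in replicate 1 (exact 95% interval 1.10 to 1.27) and by 1.16-fold in replicate 2 (1.08 to 1.24). Per base of hairpin the ratios were 1.14 in replicate 1 and 1.11 in replicate 2. This pair was among the most even of its kind. Of 16 clusters with exactly 2 detected genes at most 10 kb apart on a strand and with no 18-base window shared with other precursors, 3 had a smaller fold between their genes. Over the 16 clusters the fold ran from 1.07 to 37.8, with a median of 4.42. By mean CPM, Mir298 stood between Mir425 (491.9 ± 8.93 CPM) and Mir495 (453.4 ± 84.7 CPM), and Mir296 between Mir101b (417.4 ± 77.9 CPM) and Mir410 (406.5 ± 38.2 CPM). All 4 neighbours had ranges over the animals that overlap that of the gene beside them.

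The order of the 5 genes was the same in both animals, namely Mir335, Mir483, Mir298, Mir296 and Mir675. Per base of annotated hairpin the mean levels were 224 CPM for Mir335, 60.3 CPM for Mir483, 5.855 CPM for Mir298, 5.19 CPM for Mir296 and 0.486 CPM for Mir675, so length did not change the order. For the steps between neighbours in CPM, Mir335 exceeded Mir483 by 3.93-fold in replicate 1 and 6.44-fold in replicate 2, Mir483 exceeded Mir298 by 10.2-fold and 8.03-fold, and Mir296 exceeded Mir675 by 11.4-fold and 8.92-fold. At each step the ranges of the 2 genes over the animals did not overlap. Between Mir298 and Mir296 the gap was narrow, with 460 CPM the lowest value of Mir298 and 423 CPM the highest of Mir296.

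**Figure D2:**
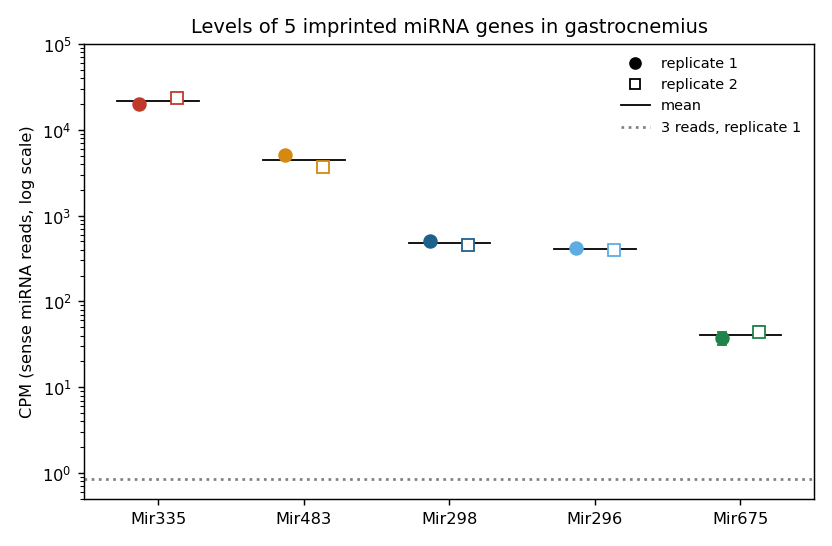
Circles (replicate 1) and open squares (replicate 2) give the level of each gene in CPM on a log axis, bars their Wilson 95% intervals (mostly within the symbols), short lines the mean, and the dotted line the 0.854 CPM that 3 reads make in replicate 1. The levels span from 20096 and 23788 CPM for Mir335 to 37.0 and 44.6 CPM for Mir675. The animals differ far less than this span, within which Mir298 and Mir296 lie close together.

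**Figure D3:**
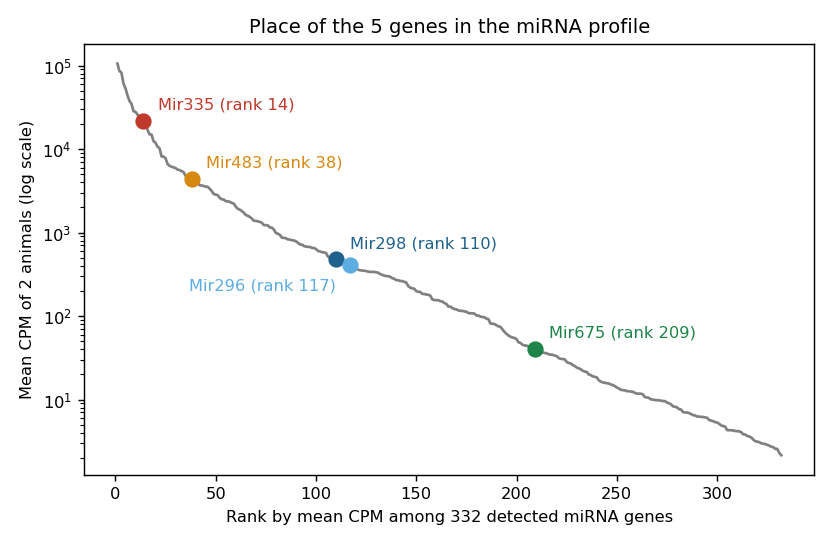
The grey line gives the mean CPM of the 332 detected miRNA genes on a log axis against their rank, and coloured points mark the 5 genes. Mir335 stands at rank 14, Mir483 at rank 38, Mir298 and Mir296 at ranks 110 and 117, and Mir675 at rank 209, below the median of 130 CPM.

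Between the 2 libraries the genes did not move together. A two-sided exact binomial test, conditional on the library totals and adjusted over 395 miRNA genes, called 3 of the 5 at an adjusted p under 0.05, namely 2 higher in replicate 1 and 1 lower. Of all genes tested 41.3% were called, 24.3% higher in replicate 1 and 17% lower. With only 5 genes, their share cannot be set apart from this background. Calls also depend on abundance: among the genes with at least 400 CPM on average, a limit chosen after their values were seen, 81.4% were called, beside 3 of the 4 genes described here that reach it. Such a test compares these libraries, with 1 library on each side, and covers counting error only.

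Mir483 was 1.38-fold higher in replicate 1 than in replicate 2 (exact 95% interval 1.35 to 1.41, log2 ratio 0.47, adjusted p = 1.42e-185), and 66 of the 332 detected genes (19.9%) had a larger log2 ratio in either direction. Mir335 was 0.845 times as high in replicate 1 as in replicate 2 (0.837 to 0.853, log2 ratio -0.24, exact adjusted p = 4.88e-251), with 44.0% of detected genes beyond it. The ratios of Mir483 and Mir335 lay within the range over all detected genes. That range includes genes near 2 CPM, where counting error is larger. None of the genes above Mir483 in mean CPM had a larger log2 ratio in either direction, the highest being 0.42. Of those above Mir335 some did go beyond it, among them Mir206 (0.28) and Mir143 (-0.36). Mir298 was 1.09-fold higher in replicate 1 (1.02 to 1.16, log2 ratio 0.12, exact adjusted p = 0.0285), but with DESeq2 size factors its exact adjusted p was 0.264. Mir296 had a ratio of 1.06 (0.990 to 1.14, log2 ratio 0.09, exact adjusted p = 0.180) and Mir675 one of 0.831 (0.657 to 1.05, log2 ratio -0.27, exact adjusted p = 0.227), and neither passed. The median log2 ratio was 0.09 over the 5 genes and 0.03 over all genes tested. With DESeq2 size factors 46.7% of the called genes were higher in replicate 1, against 58.9% with the library totals, while the direction of each of the 5 genes was unchanged.

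**Figure D4:**
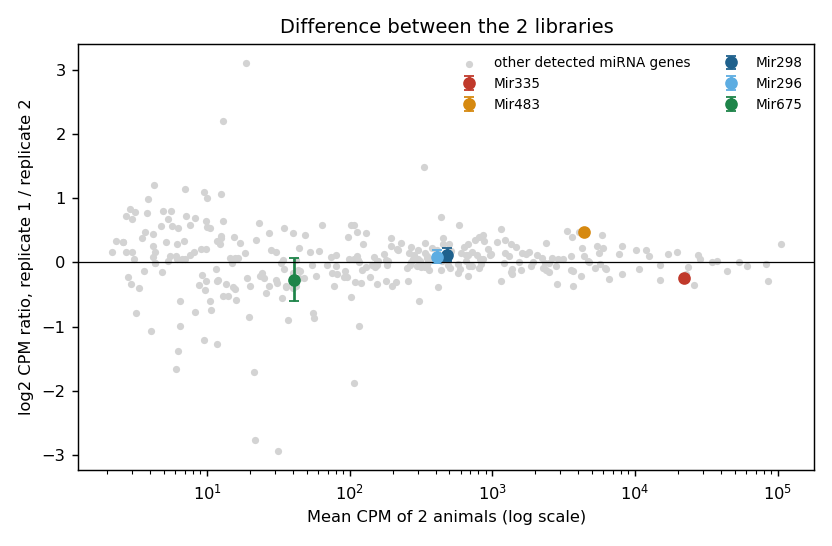
The log2 ratio of CPM in replicate 1 over replicate 2 is plotted against mean CPM on a log axis, for the 5 genes in colour with exact 95% intervals and for the other detected miRNA genes in grey. Mir483 (0.47), Mir298 (0.12) and Mir296 (0.09) lie above 0, and Mir335 (-0.24) and Mir675 (-0.27) below it.

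The miRNAs of other cell types also differed between the libraries. The liver miRNA Mir122 stood at 491 CPM in replicate 1 and 176 CPM in replicate 2, the same direction as Mir483. Of the 3 leukocyte miRNAs, Mir142 (150 and 109 CPM in replicates 1 and 2) and Mir223 (128 and 85.6 CPM) were higher in replicate 1, while Mir155 stood at 181 and 186 CPM (exact adjusted p = 0.735). Of the 2 erythroid miRNAs, Mir451a stood at 1911 and 1712 CPM and Mir144 at 155 and 154 CPM (exact adjusted p = 0.920). The list sums were 459 and 380 CPM for leukocytes and 2066 and 1865 CPM for erythroid cells. Endothelial Mir126a stood at 42036 and 46314 CPM, and the smooth muscle and stroma pair Mir143 and Mir145a summed to 23481 and 29892 CPM, lower in replicate 1 like Mir335. Their part in the differences of Mir483 and Mir335 was not tested. Of 9 striated muscle miRNAs 8 were detected, summing to 116658 and 96096 CPM in replicates 1 and 2, nearly all on Mir206. Mir206 alone sets the direction of that sum, and the other 8 genes of the list had lower CPM in replicate 1, among them Mir208b (82.6 and 120 CPM) and Mir486 (190 and 235 CPM). Of the 9 muscle genes 4 share a 22-base window with another precursor. Reads of those 4 may have been set aside, so their low counts do not show low levels. Of 6 neuronal miRNA genes, copies of Mir124a and Mir9, 0 were detected. All 6 share a 22-base window with another precursor, so their reads may have been set aside and their counts do not show absence. Mir137, a miRNA known from neurons that is on none of these lists and was named after its values were seen, stood at 45.9 CPM in replicate 1 and 169.6 CPM in replicate 2 (exact adjusted p = 6.40e-61).

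Other imprinted loci gave a measure of where the 5 genes stand. On the plus strand of the Dlk1-Dio3 region from Mir770 to Mir3072, the strand of the miRNAs known to be expressed from the maternal chromosome, the 58 annotated genes, of which 51 were detected, held 29.9% ± 0.931 of the reads (SD, n = 2), against 2.73% ± 0.157 for the 5 genes. Of the miRNA genes on the same strand inside Sfmbt2, an imprinted gene with a large rodent cluster, 7 of 119 were detected. The highest of them was Mir467d at 275 CPM in replicate 1 and 248 CPM in replicate 2, below Mir296 and above Mir675. In that cluster 117 of the 119 genes share a 22-base window with another precursor, so their reads may have been set aside and the counts are uncertain. The 13 genes named Mir344, on chromosome 7, had 4 and 3 reads in all, with 0 detected, although 11 of them share such windows. Mir184, reported as imprinted in mouse brain, stood at 31.9 and 28.6 CPM, from 112 and 113 reads, below Mir675 in both animals. In replicate 1 its value lies within the interval of Mir675 (31.2 to 44.0 CPM), so their order is not resolved there.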

How the data were processed

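The deposited files hold raw read counts per miRNA gene without normalization, as unstranded, sense and antisense counts with 4 summary rows, and come from build mm10 and the GENCODE M21 annotation per the file headers deposited beside them. How reads were trimmed, aligned and filtered is not given in the sources used here. The choice of the sense column rests on the layout and the totals. Per the labels, RNA under 30 bases was selected.

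Sense reads were scaled to CPM. Summary rows stayed out of library totals. Multiply aligned reads, 42.6% of replicate 1 and 46.4% of replicate 2, are counted on no gene. The libraries were compared with an exact conditional binomial test in SciPy 1.17.1, with Benjamini-Hochberg adjustment over genes whose summed count was 10 or more, after the step was checked on simulated data. Log2 ratios add 0.5 to each count. Library sizes for alternatives came from edgeR 4.0.16 (TMM) and DESeq2 1.42.0 in R 4.3.3. Hosts are annotated genes on the same strand that contain a hairpin.

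The 5 genes and all lists were chosen with earlier results of these data known. Named genes were the 5 themselves, the detected genes next to each in mean CPM, genes sharing a seed, and the highest gene of other imprinted loci. Genes sharing bases 2 to 7 of a mature miRNA were added after the seeds had been compared.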

Additional observations from a re-analysis of the deposited data

How the results depend on the processing

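Of 65 values recomputed under other settings, beside those that left out an animal, 47 were judged unchanged. Tests had to keep their side of the threshold, and levels, shares and ratios to move no more than the spread between animals. Counts of genes had to stay near the original count. With all reads of a file as the denominator, mean levels became 8944 CPM for Mir335, 1816 CPM for Mir483, 197 CPM for Mir298, 168 CPM for Mir296 and 16.6 CPM for Mir675, together 1.11% of reads. From unstranded counts they became 26282 CPM for Mir335, 574 CPM for Mir298, 491 CPM for Mir296 and 49.5 CPM for Mir675, together 3.27%. Without Mir206 in the denominator Mir298 stood at 537 CPM and Mir296 at 459 CPM. These settings change the total that each level is divided by. Per base of hairpin the ratio of Mir298 to Mir296 was 1.13 on average. The log2 ratio of Mir298 was 0.068 with DESeq2 size factors (exact adjusted p = 0.264) and 0.089 from unstranded counts (0.137), no longer passing, against 0.00377 to 0.0489 under its other alternatives. That of Mir296 was 0.12 with totals without Mir206 (exact adjusted p = 0.0481), now passing, against 0.143 to 0.653 under its other alternatives. A limit of 2-fold left 28 of 163 called genes, none of the 5 among them.

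Leaving out an animal in turn gave 20096 to 23788 CPM for Mir335, 3692 to 5107 CPM for Mir483, 460 to 500 CPM for Mir298, 397 to 423 CPM for Mir296, 37.0 to 44.6 CPM for Mir675 and a share of 2.62% to 2.84%. The ratio of Mir483 to Mir675 was 82.9 to 138 and that of Mir298 to Mir296 1.16 to 1.18. Differences between the libraries cannot be computed without either of them. No paired analysis was possible because there is 1 group. Depth limits Mir675 most, with 130 and 176 reads.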

Other observations

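Antisense reads were counted on Mir675 alone among the 5 genes, 2 in each library. They made up 1.52% of its reads in replicate 1 (exact 95% interval 0.184% to 5.37%) and 1.12% in replicate 2 (0.136% to 4.00%). Over the 2138 genes that have no partner miRNA gene antisense to them, the antisense share was 0.00111% in replicate 1 and 0.00135% in replicate 2. Only 3 of these genes had at least 2 antisense reads in both libraries, and the other two, Mir434 and Mirlet7b, had 37584 or more sense reads in each. Mir675 was singled out after its values were seen, and its antisense share rests on only 2 reads in each library.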
